A study of Mus musculus with 4 samples.

Results

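Igf2r and its antisense RNA Airn share a stretch of mouse chromosome 17 in which the gene bodies run in opposite directions and overlap at their start ends. Here the islands of trimethylated histone H3 lysine 36 (H3K36me3) over this stretch were described in differentiated mouse muscle cells. The members were all islands that overlap 12860001 to 13070000 on chromosome 17 (mm9), 11 of 58326 islands in the wild-type library and 10 of 69798 in the mutant library. An island is a run of 200 bp windows enriched in reads, as called by the authors in each library on its own.

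The data came from 1 H3K36me3 chromatin immunoprecipitation (ChIP-seq) library per genotype, prepared from FVB mice. One genotype was wild type, and the other is labelled an enhancer deletion mutant, which per the title of the series lacks a muscle-specific enhancer of H19/Igf2. The sample title codes the mutant as VV, which the labels do not explain. In both genotypes myoblasts were taken from skeletal muscle on postnatal day 4, used at passage 5 to 10, and differentiated for 24 hours without growth factors. The sources used here do not say how many animals or cultures stand behind a library, and the reads are not split by parental allele. Input libraries and the positions of muscle marker genes on mm9 were not analysed here. Depth, solved from the scores of the shortest islands, was 2.82 reads per window in wild-type cells and 3.11 in mutant cells. Each genotype has a lone library, so the spread between replicates is unknown, genotypes could not be tested against each other and no p-value is given.

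Igf2r encodes the cation-independent mannose 6-phosphate receptor, which carries lysosomal enzymes and binds insulin-like growth factor 2, the product of Igf2, for degradation. In mice Igf2r is expressed mainly from the maternal chromosome, while Airn, a long noncoding RNA, is transcribed from the paternal chromosome out of an Igf2r intron and across the Igf2r promoter. Transcription of Airn is known to silence Igf2r on the same chromosome. H3K36me3 is laid down over gene bodies by Setd2, an enzyme that travels with elongating RNA polymerase II.

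The start of each gene lay inside an island in both libraries, so the sequence at both starts is shown. Each line gives 250 bases before to 50 bases after the start from the RefSeq promoter table, 5′ to 3′ on the strand of the gene, with CG dinucleotides in capitals. The build of this table is GRCm38.p6, and the coordinates on it, chr17:12769657-12769956 (minus strand) for Igf2r and chr17:12741061-12741360 (plus strand) for Airn, are not mm9 positions.
Igf2r: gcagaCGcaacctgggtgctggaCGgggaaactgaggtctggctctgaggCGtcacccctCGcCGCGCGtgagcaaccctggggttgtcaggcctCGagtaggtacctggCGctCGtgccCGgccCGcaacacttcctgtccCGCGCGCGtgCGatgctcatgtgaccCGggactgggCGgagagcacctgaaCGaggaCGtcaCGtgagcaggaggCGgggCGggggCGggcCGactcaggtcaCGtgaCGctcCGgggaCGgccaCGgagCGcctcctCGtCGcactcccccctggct
Airn: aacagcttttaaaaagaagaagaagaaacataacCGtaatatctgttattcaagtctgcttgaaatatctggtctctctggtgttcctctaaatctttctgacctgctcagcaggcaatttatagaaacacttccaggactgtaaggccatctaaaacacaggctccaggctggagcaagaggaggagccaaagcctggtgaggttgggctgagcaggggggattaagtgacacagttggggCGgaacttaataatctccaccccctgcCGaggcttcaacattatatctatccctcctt
The Igf2r window held 34 CG dinucleotides at a G and C content of 70.7%. The Airn window held 3 at 45.7%. Over 32851 promoters of this length the medians were 7 CG dinucleotides and 52.7%, and 7.73% of promoters had at least as many CG dinucleotides as Igf2r. On either strand, counting overlapping matches, CACGTG was found 2 times in the Igf2r window and 0 times in the Airn window, and was held by 7.15% of promoters. GGGCGG was found 3 times and 1 time (35.7% of promoters), and TATAAA 0 times and 1 time (13.6%).

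The body limits used were 12875301 to 12962500 for Igf2r, which is transcribed toward lower coordinates, and 12934201 to 13052000 for Airn, which is transcribed toward higher ones. They are approximate. Their lengths of 87200 and 117800 bp compare with 87301 and 118574 bp in the GRCm38 gene table. They divide the locus into a stretch of Igf2r alone (12875301 to 12934200, 58.9 kb), the overlap of both genes (12934201 to 12962500, 28.3 kb) and a stretch of Airn alone (12962501 to 13052000, 89.5 kb).

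Islands lay over both genes in both libraries, and cover had the same order in each, highest over Igf2r alone, lower in the overlap and lowest over Airn alone. Islands covered 51.3 kb of Igf2r alone in wild-type cells and 52.5 kb in mutant cells, 87.1% and 89.1% of its length. In the overlap they covered 16.5 kb and 16.3 kb, 58.3% and 57.6%. Over Airn alone they covered 36.1 kb and 37.5 kb, 40.3% and 41.9%. The genotypes thus lay within 2.04 percentage points of each other in every stretch. The sign of the small difference in the overlap turned when islands within 2 kb were joined, and with only the higher-scoring 50% of each list the cover of Airn alone was 27.8% in wild-type cells against 39.9% in mutant cells. That cut dropped a pair of wild-type islands over Airn but kept the single mutant island that spans both.

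**Figure D1:**
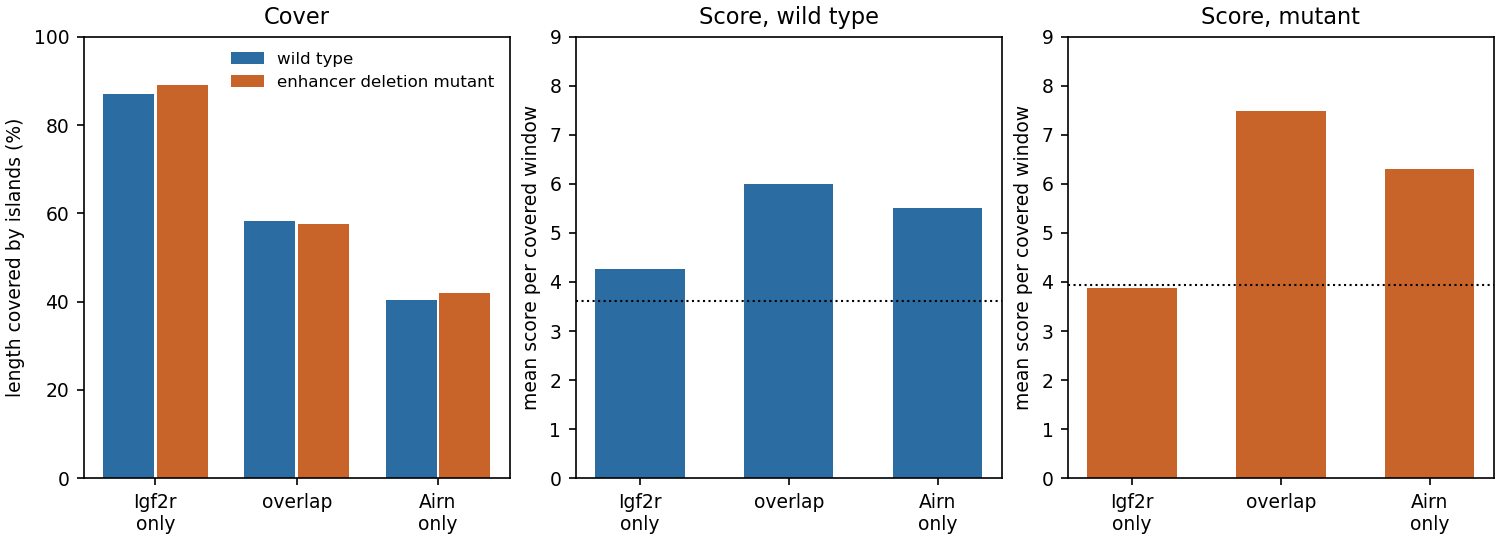
Left, percentage of each stretch covered by islands in the wild-type (blue) and mutant (orange) libraries, 1 library each. Middle and right, mean score per covered window in each list, with the list median as a dotted line, to be read within a library only. Cover is highest over Igf2r alone in both libraries, whereas the score per window allotted by length is highest in the overlap, at 5.99 and 7.48. Each base carries the mean score of its island. In wild-type cells the islands in the overlap all cross its limits, so its own score was not measured.

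None of the 3 stretches differed in covered length by 1.5-fold between the libraries. Igf2r alone was covered to 87.1% in wild-type cells, so a mutant cover 1.5-fold higher was not possible there. Only a lower mutant cover could have passed that fold. The ratios of mutant to wild type were 1.02 for Igf2r alone, 0.988 for the overlap and 1.04 for Airn alone. When the autosomes were cut into tiles of the same lengths, a 1.5-fold difference in either direction was seen in 47.6%, 50.2% and 45.1% of tiles that held an island in either list. Many of those tiles had little cover. Among tiles covered to at least 25% in either list, a setting added after seeing the data, the shares were 23.0%, 31.2% and 18.3%. Neither set of tiles was matched to the cover of the stretches.

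Most of the covered length was shared by the libraries. Over the whole stretch of 210 kb, 98.6 kb were covered in both libraries, 8.2 kb in wild-type cells alone and 11 kb in mutant cells alone. The shared length was 83.7% of the length covered in either library (Jaccard index), against 58.7% for all of chromosome 17. Among tiles of 210 kb that were covered to at least 25% in either list, the median was 64.7%, and 3.44% of tiles reached the value of this locus. The index tends to rise with cover, and these tiles were not matched to the cover of the locus, 50.9% and 52.2%. Of the shared length, 49.5 kb lay over Igf2r alone. By stretch the index was 91.2% over Igf2r alone, 89.6% in the overlap and 71.6% over Airn alone. At the cover of Igf2r alone the index could not have been below 76.2% wherever the islands lay, so its value there says little about position. For Airn alone, 34.0% of tiles of its length shared as much or more, and the median of those tiles was 64.8%.

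For its length, Igf2r alone was among the most covered stretches of the autosomes. In wild-type cells 0.364% of 40971 tiles of this length were covered as much or more, and in mutant cells 0.193%, where the median tile held no island. The overlap was matched or exceeded by 7.01% and 7.38% of tiles of its own length. Airn alone was matched or exceeded by 11.3% and 10.5%. Tiles were laid without regard to genes, so these shares describe the genome and not other transcribed genes.

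**Figure D2:**
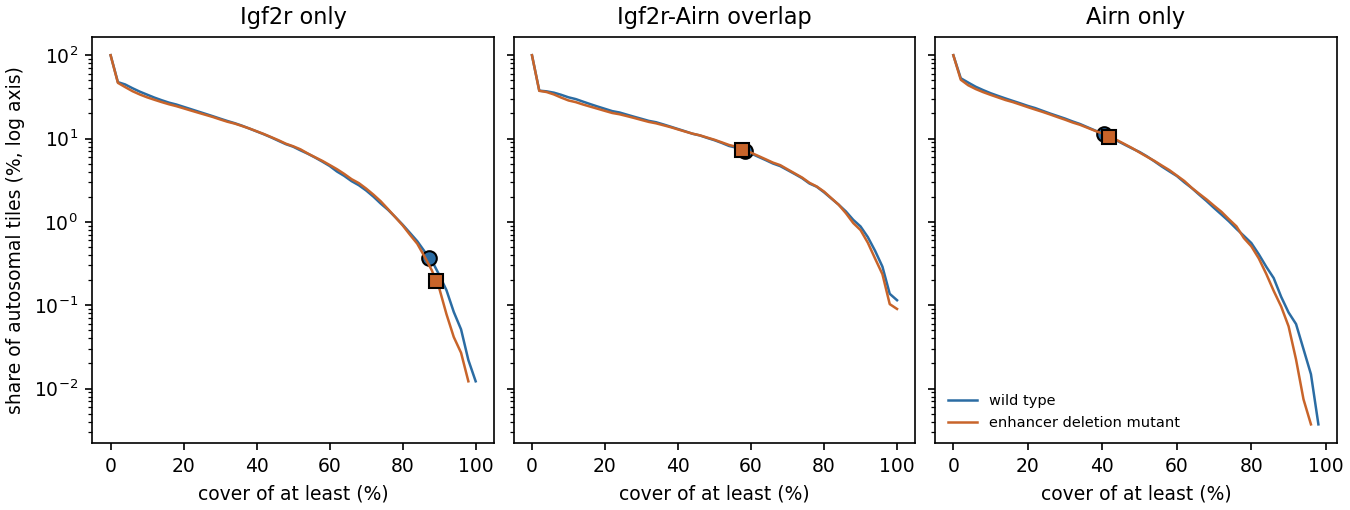
Share of autosomal tiles (log axis) whose cover was at least the value on the x axis, for tiles of the length of each stretch, in wild-type cells (blue) and the mutant (orange). Large symbols mark the stretches themselves. Igf2r alone sits at 0.364% and 0.193% of tiles, the overlap at 7.01% and 7.38%, and Airn alone at 11.3% and 10.5%.

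Across Igf2r, the start and the end of the gene were covered in both libraries, and the least covered bins lay 10 to 20 kb from the start. In equal parts of 21.8 kb counted from the start, cover in wild-type cells was 45.9%, 78.0%, 87.2% and 100%. In mutant cells it was 49.5%, 78.0%, 88.1% and 100%. The first part lies within the overlap with Airn and holds the uncovered bins. The last part lay in the longest island of the locus, which ran from 12872401 to 12898200 (25.8 kb) in wild-type cells and from 12872001 to 12899600 (27.6 kb) in mutant cells. This island reached 2.9 kb and 3.3 kb past the end of Igf2r. Only 0.802% of wild-type islands and 0.433% of mutant islands were as long or longer.

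The rest of Igf2r alone was taken up by an island pair with short gaps. In wild-type cells the pair lay at 12899201 to 12915600 and 12917401 to 12926800. In mutant cells it lay at 12901401 to 12915600 and 12916401 to 12927600. The inner end of the first of these, at 12915600, was the same window in both libraries. A gap of 4.8 kb in wild-type cells and 3.8 kb in mutant cells then separated these islands from the next, which began 2.6 kb and 2.8 kb before the Airn start.

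Within the overlap the mark was split by an uncovered stretch that was nearly the same in both libraries. The island across the Airn start ran from 12931601 to 12942200 in wild-type cells. In mutant cells the same place held an island from 12931401 to 12939400 and another from 12940401 to 12942600, with 1 kb between them. No island lay between 12942601 and 12953600 in either library, so from 8.4 kb to 19.4 kb past the Airn start neither list had cover. The gaps as called in each list, 11.8 kb in wild-type cells and 11 kb in mutant cells, were of a common size, since 34.3% of gaps between wild-type islands on the autosomes and 28.5% of those between mutant islands were as long or longer.

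The Igf2r start lay well inside an island that extended to both sides. It ran from 12954001 to 12972600 (18.6 kb) in wild-type cells and from 12953601 to 12973200 (19.6 kb) in mutant cells. From the Igf2r start it reached 8.5 kb and 8.9 kb into Igf2r, and 10.1 kb and 10.7 kb beyond the start into the stretch where only Airn is annotated. All of the wild-type island was covered in mutant cells. Both transcripts, and both parental chromosomes, can contribute reads on the Igf2r side, and these lists do not separate them.

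**Figure D3:**
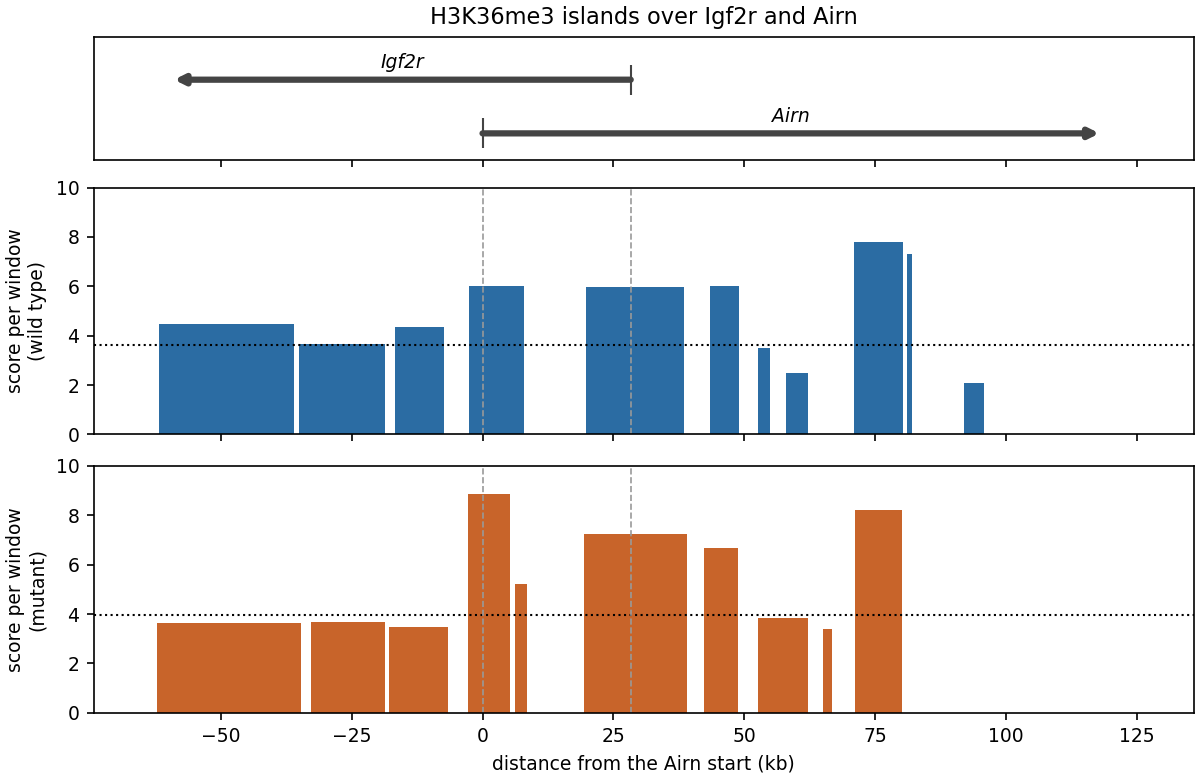
Islands by distance from the Airn start in kb, with the bodies of Igf2r and Airn as arrows in the direction of transcription (top), for the wild type (middle) and the mutant (bottom). Bar width is island length, bar height is deposited score per window, dotted lines are the median of each list (3.62 and 3.95) and dashed lines mark the Airn start and the Igf2r start. Heights are read within a library only. Both libraries show the uncovered stretch inside the overlap, and the wild-type islands reach farther toward the end of Airn.

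Along Airn, cover was lowest in the last part of the gene in both libraries. In equal parts of 29.45 kb counted from the start, cover in wild-type cells was 59.9%, 59.9%, 45.8% and 12.9%. In mutant cells it was 59.3%, 76.2%, 47.2% and 0%. Past the island at the Igf2r start, both libraries had islands near 12977601 to 12983000 and 13005401 to 13014200. The second of these was 9.2 kb long in wild-type cells and 8.8 kb in mutant cells. It lay 71 to 80 kb past the Airn start and had the highest score per window of the wild-type islands of the locus.

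Over Airn alone, 5.4 kb were covered in the wild-type library only and 6.8 kb in the mutant library only, more than in the other stretches. The last wild-type island, 13026201 to 13030000, ended 95.8 kb past the Airn start, whereas the last mutant island ended at 80 kb. This 3.8 kb island and a 1 kb island at 13015201 to 13016200 were the wild-type islands with no counterpart. The 1 kb island lay only 0.8 kb past the shared island that ended at 13014400. With islands within 2 kb joined it became part of that shared island. The mutant had 1 island without a counterpart, 12999201 to 13001000 (1.8 kb). A further 3.2 kb, 12989001 to 12992200, was covered in mutant cells by an island of 9.6 kb and left between a pair of islands of 2.2 kb and 4.2 kb in wild-type cells. From 13030001 to 13070000, past the Airn end, neither library held an island.

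Those islands without a counterpart were low in their own lists by deposited score. The distal wild-type island scored 39.8 and the 1 kb island 36.6, where the lowest score in that list was 30.3 and the median 63.3. The mutant island scored 30.4, where the lowest and median were 22.6 and 51.9. By score per window the distal wild-type island was thin, at 2.09, a value that 93.2% of the list reached or exceeded. The 1 kb island was dense, at 7.31.

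In all, 9 of 11 wild-type islands (81.8%, exact binomial 95% interval 48.2% to 97.7%) and 9 of 10 mutant islands (90%, 55.5% to 99.7%) had at least 1 bp covered in the other list. The intervals cover counting error only and treat neighbouring islands of the locus as independent, which they may not be. The shares without a counterpart over the whole lists were 18.0% in wild-type cells and 25.7% in mutant cells. Both lie within what these wide intervals allow, so this count cannot tell the locus apart from the lists. At 50% of the island covered in the other list, the same 9 and 9 had a counterpart.

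**Figure D4:**
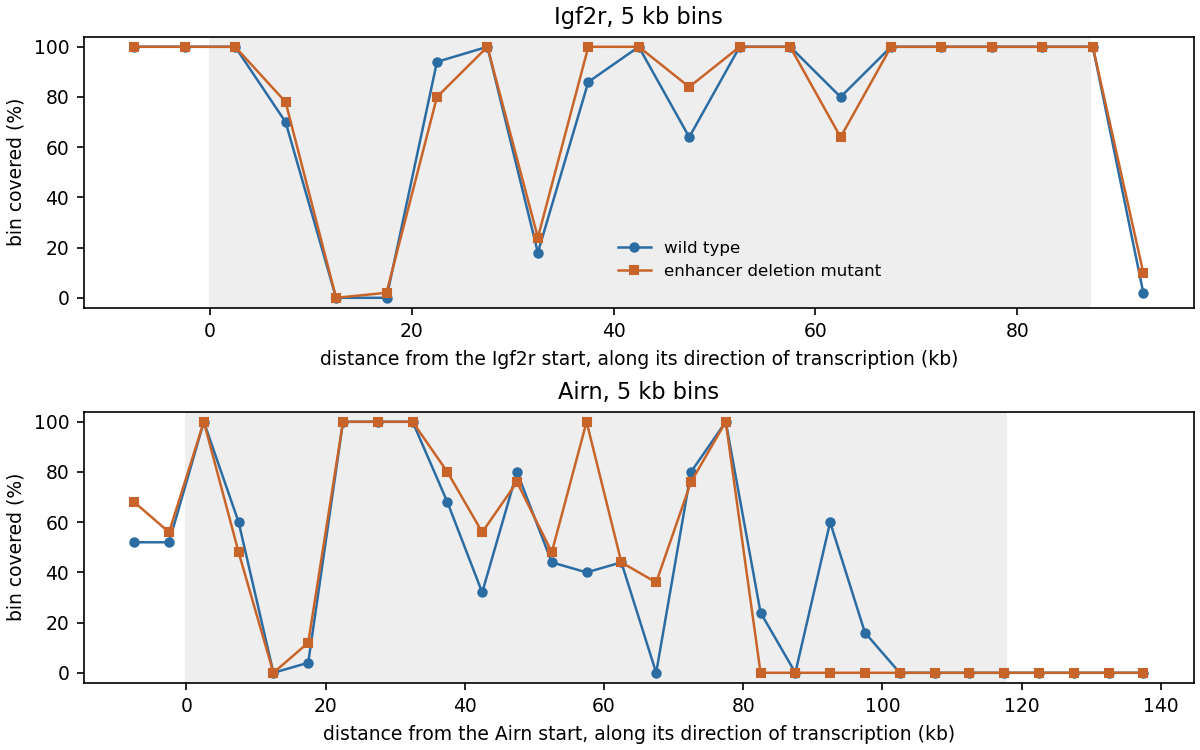
Percentage of each 5 kb bin covered by islands, by distance from the Igf2r start (top) and the Airn start (bottom) along the direction of transcription, with the gene body in grey, wild type in blue circles and mutant in orange squares. From 70 kb to 85 kb into Igf2r every bin is at 100% in both libraries. Past 80 kb into Airn only wild-type bins have cover, at most 60%.

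Score per covered window was higher on the Airn side than over Igf2r alone, in each list taken by itself. It divides the score of an island by all its windows, including unenriched ones bridged between enriched windows. A higher value can thus mean fewer bridged windows, which was not tested. The score of an island adds up how improbable the read count of each enriched window is under a Poisson background, on a negative natural log scale, so at equal enrichment it grows with depth, and it was not compared between the libraries. In the deeper mutant library the background is higher, and a window of 7 reads scores 3.70 there and 4.09 in the wild-type library. In wild-type cells the mean score per covered window was 4.27 over Igf2r alone, 5.99 in the overlap and 5.51 over Airn alone. In mutant cells it was 3.89, 7.48 and 6.31 in the same order. The overlap thus lay 1.72 score units per window above Igf2r alone in wild-type cells and 3.59 in mutant cells, and Airn alone 1.24 and 2.42. These are differences of a log probability, not folds of reads, and they are not read against each other between the libraries. Each base carried the mean score of its island. The island at the Airn start counted in both Igf2r alone and the overlap. That at the Igf2r start counted in both the overlap and Airn alone. The scores of all these stretches are thus not independent. Whether input DNA differs between these stretches was not analysed here.

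The long islands of Igf2r alone were of middling density in their lists. In wild-type cells the 3 islands scored 4.49, 3.66 and 4.34 per window, against a list median of 3.62. In mutant cells they scored 3.62, 3.70 and 3.47, against a median of 3.95. Total scores were nonetheless high because of length, and only 1.99% of wild-type and 2.39% of mutant islands scored as much as the one at the end of Igf2r.

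Denser islands lay at the Airn start, at the Igf2r start and far into Airn. The island at the Airn start scored 6.02 per window in wild-type cells, where 12.5% of islands scored as much, and 8.87 in mutant cells, where 3.91% did. The mutant value leaves out the island after the 1 kb gap, 12940401 to 12942600, which scored 5.22 (25.7%). The island at the Igf2r start scored 5.97 (12.9% of islands) and 7.23 (8.74%). The island 71 to 80 kb past the Airn start scored 7.80 (4.82%) and 8.21 (5.39%). The one that covers 12977601 to 12983000 scored 6.01 and 6.66. Not all of Airn was dense, since the wild-type islands at 12986801 to 12989000 and 12992201 to 12996400 scored 3.48 and 2.49, and the mutant island over both scored 3.84. The distal wild-type island, 13026201 to 13030000, scored 2.09 (93.2% of islands scored as much). The mutant island without a counterpart, 12999201 to 13001000, scored 3.38 (64.8%).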

How the data were processed

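H3K36me3 ChIP-seq was analysed in 2 of 4 samples, 1 per genotype, and the 2 input samples were not analysed here. The deposited files are lists of islands with a score per island, called per library. The submitters' processing notes name Bowtie 1.0.0 (a short-read aligner), SICER 1.1 (a caller of broad islands) and the build mm9. Per the deposited file names the window was 200 bp and the gap 600 bp, and the sources used here do not say whether input was used. Groups were taken from the genotype label.

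Cover, shared length and gaps were computed from island coordinates with Python 3.11.15, numpy 2.4.6, pandas 2.3.3 and scipy 1.17.1. Score per covered window gives each base of an island the mean score of that island, taken over all its windows, enriched or not. Islands that cross a limit were divided between stretches by length. Depth was solved from the scores of 1-window islands (8 in wild-type cells, 14 in mutant cells), which allow only whole read counts. Tiles ran end to end over the autosomes from the outermost islands. Depth was recovered in 10 of 10 sets of simulated scores, made without noise by the same formula. When 200 islands were removed from a copy of the wild-type list, 200 of 200 were found without a counterpart. These runs check the code only.

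Igf2r and Airn were named throughout, and every island of the locus was accounted for. The members and lists were chosen with earlier results of these data known. Alternatives tried were the upper 50% of each list by score, equal covered length, islands of at least 2 kb, islands within 2 kb joined, shifted overlap limits, a 50% counterpart rule, tiles of chromosome 17, a 2-fold difference, and, added after seeing the data, tiles covered to at least 25% and the score differences under the list and limit settings.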

Additional observations from a re-analysis of the deposited data

How the results depend on the processing

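Percentages and their differences were held to a 95% counting interval, and island counts and score differences to 1.5 times the value as deposited. By these rules, of 112 values recomputed under other settings, 94 stayed within, 17 moved and 1 reversed. This tally does not measure how stable the values are. Under equal covered length no island of the locus dropped out, and its 18 values were unchanged. Other values stayed identical because the islands behind them were kept. For cover, the interval takes each 200 bp window as a separate trial, although neighbouring windows are not independent. With islands within 2 kb joined, the difference in overlap cover (mutant minus wild type) turned from -0.71 to 2.83 points, cover of Igf2r alone was 91.9% in wild-type cells and 93.6% in mutant cells, and the Jaccard index was 87.3%. Joining fills the 1 kb gap of the mutant at the Airn start. With only the higher-scoring 50% of each list, 7 wild-type islands were left, wild-type cover of Airn alone was 27.8%, and the difference there was 12.1 points in place of 1.56 (0.67 with islands of at least 2 kb or joined). Keeping the higher-scoring 50% removes low-scoring islands. In wild-type cells these were the distal island, the 1 kb island, and a pair of islands scoring 38.3 and 52.2. That pair lay at 12986801 to 12989000 and 12992201 to 12996400, where the single mutant island over both scored 184 and was kept. A cut on total score thus treats split and unsplit islands unlike. Under this setting the score per window of Airn alone lay 2.38 above Igf2r alone in wild-type cells, in place of 1.24. Among tiles of chromosome 17, 0.255% and 0.128% were as covered as Igf2r alone, and 12.03% in both libraries as Airn alone. At a 2-fold difference, 34.8%, 38.1% and 32.45% of tiles of the 3 lengths differed, and 22.98%, 31.2% and 18.3% of tiles covered to at least 25% did at 1.5-fold. The overlap and Airn alone scored above Igf2r alone in both libraries under each of the list and limit settings, by 1.19 to 3.90 score units per window. No paired analysis was possible because each genotype has 1 library, and leaving out a replicate was not possible either. How far depth sets these values was not tested.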

Other observations

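Past the Airn end, outside the locus, the next islands began at 13080601 in wild-type cells and 13083201 in mutant cells, 50.6 kb and 69 kb after the last island over Airn. From there to 13122600 and 13122000, 6 wild-type islands covered 32.8 kb and 7 mutant islands covered 25.2 kb. By order of start, the GRCm38 gene table lists 3 pseudogenes and then Mas1, Mrgprh and Pnldc1 after Airn.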
